A study of Rattus norvegicus with 99 samples.

Results

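The interventricular septum (Spt) was examined in rats with left heart failure upon aortic banding (AOB). The members were chosen by sample title as all Spt libraries of the AOB failure group (AOB-F) and of its own sham group (Sham-LF), which gave 7 of the 99 libraries of the series, 4 AOB-F and 3 Sham-LF. All animals were male F1 rats of Wistar Kyoto mothers and Lewis fathers. A clip that did not narrow the aorta when it was placed was put around the vessel of AOB-F animals, and Sham-LF animals had a sham operation. By the sample labels both groups were 30 weeks old and 24 weeks past surgery, and the text of the study gives other ages. Polyadenylated RNA of whole Spt tissue was sequenced, 1 library per animal, and the left ventricle (LV) and right ventricle (RV) of the same 7 animals were sequenced as well. Because the tissue was not separated into cells, a lower level of a transcript cannot be told apart from a smaller share of the cells that hold it. The model concerns male animals of 1 cross, at 1 time after surgery.

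The septum is the muscular wall shared by both ventricles. It contracts with the LV and faces the high pressure of that chamber on one side and the low pressure of the RV on the other. Cardiomyocytes under pressure load are known to switch on natriuretic peptides and other transcripts of the foetal heart, to add stretch-responsive proteins at the Z-disc and the intercalated disc, and to lower enzymes of fatty acid oxidation and oxidative phosphorylation. Fibroblasts of loaded hearts deposit extracellular matrix, in part under the control of TGF-beta.

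The 7 libraries held 12.1 to 19.6 M (mega) counts, 14.0% to 15.7% of which fell on the 10 most abundant genes. The unit of a level is CPM, the count relative to the library total after TMM scaling, and 1 read was worth about 0.0511 to 0.0829. Fold changes are log2 differences, AOB-F minus Sham-LF, with their SE, from 1 fit of the 33 Spt libraries of the series, and a gene is said to have risen or fallen only if its Benjamini-Hochberg adjusted p was under 0.05 in edgeR's quasi-likelihood test. Markers of ventricular cardiomyocytes were present in all 7 libraries, the light chain Myl2 at 8494 to 11352 CPM. Their sum over 9 genes was 73926 to 87828 CPM in Sham-LF and lower, 52530 to 66240 CPM, in AOB-F. Their median fold change was -0.18, 7 of the 9 had a negative sign, 2 were lower and 1 was higher at a nominal (unadjusted) p below 0.05, and 0 passed the adjusted test. Tnni3, the cardiac inhibitory troponin, was at 9389 to 12393 CPM in Sham-LF and 6018 to 8370 CPM in AOB-F (-0.57 ± 0.19, adjusted p 0.172). Atrial transcripts were uneven. Myl7, the atrial light chain, was at 255, 4.64 and 15.6 CPM in Sham-LF replicates 1 to 3 and at 3.11, 99.9, 4.47 and 127 CPM in AOB-F replicates 1 to 4. Sln, the atrial inhibitor of the calcium pump, was high in the same 3 libraries, with 45.0, 2.80 and 4.02 CPM in Sham-LF and 0.925, 20.9, 0.667 and 40.8 CPM in AOB-F. Results are therefore also given without the libraries that held more than 50 CPM of Myl7. These were 3 of the 7, which leaves 2 animals against 2, and over all 33 Spt libraries 6 were above this limit.

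A further property of the libraries bears on the comparison of chambers. In the LV and RV of the AOB-F animals the response was largest in the libraries labelled replicates 1 and 4, whereas in Spt it was largest in those labelled 1 and 3. Nppa, the precursor of atrial natriuretic peptide, was at 17569, 3773, 2194 and 16283 CPM in LV of AOB-F replicates 1 to 4 and at 5898, 1377, 96.1 and 8385 CPM in RV. In Spt the same labels held 14113, 3110, 11348 and 1806 CPM. Lsamp, an adhesion molecule of the immunoglobulin family, was lowest in replicates 1 and 4 of LV (2.23 and 3.33 CPM) and RV (6.65 and 5.48 CPM), and in replicates 1 and 3 of Spt (3.44 and 3.94 CPM). Over 11624 genes the deviations of each Spt library from its group mean had a Pearson correlation of -0.44 with the LV library of the same label for replicate 3 and -0.33 for replicate 4, against 0.47 and 0.45 for replicates 1 and 2. Spt replicate 3 correlated at 0.34 with LV replicate 4, and Spt replicate 4 at 0.54 with LV replicate 3. Some other pairs of unlike labels were also positive, such as Spt replicate 3 with LV replicate 1 at 0.486. Spt replicate 1 with LV replicate 4 had 0.399, and Spt replicate 2 with LV replicate 3 had 0.484. Others were negative, so a positive value does not by itself identify an animal. With RV, Spt replicates 3 and 4 had -0.448 and -0.534 at the same label, and 0.525 and 0.505 at the exchanged label. In Sham-LF the correlation within an animal was not always positive either, with -0.19 between Spt and LV and -0.30 between LV and RV of replicate 1. For Spt of AOB-F replicates 1 and 2 the sources used here differ in the order of the columns, and with these exchanged the correlations with LV would be -0.36 and -0.45. Genes are not independent, so these values are descriptions, and the labels were kept. Whether Spt libraries were exchanged between animals was not tested. The comparison of AOB-F with Sham-LF within Spt does not use this link, and the differences between chambers are given with the labels as they are and with Spt replicates 3 and 4, or 1 and 2, exchanged.

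**Figure D1:**
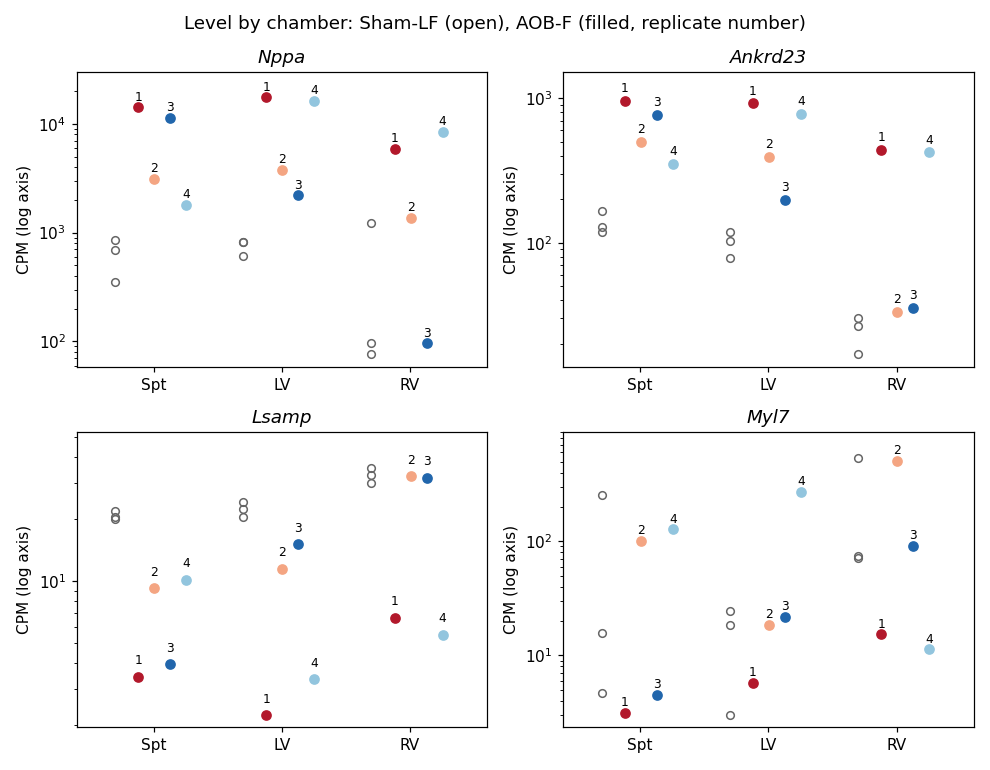
Levels in CPM (log axis) of Nppa, Ankrd23, Lsamp and Myl7 in Spt, LV and RV. Open circles are the 3 Sham-LF libraries and filled circles the 4 AOB-F libraries with their replicate number. In Spt the Nppa of replicates 1 and 3 stands at 14113 and 11348 CPM, and in LV replicates 1 and 4 hold the most Nppa at 17569 and 16283 CPM.

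Of 11624 genes tested in Spt, 27 changed upon AOB-F (0.232%), 18 upward (0.155%) and 9 downward (0.0774%). At a nominal p below 0.05, 664 genes were higher (5.71%) and 756 lower (6.5%). AOB-F and Sham-LF libraries did not overlap for 25 of the 27, whereas this was so for 9.94% of all genes, and the exceptions were Ptgfr and Tsc22d1. These genes were called from the same difference, so the count describes them. For 26 of the 27 genes the AOB-F libraries farthest from the sham mean were replicates 1 and 3, as for 34.4% of all genes. These were also the AOB-F libraries with little Myl7. Without the libraries above 50 CPM of Myl7, 1118 of 11577 genes passed (9.66%; 4.86% higher and 4.79% lower), all 27 included. That fit was chosen after seeing the data and keeps AOB-F replicates 1 and 3, which lay farthest from the shams for 26 of the 27. Genes that pass in it, here and in the lists below, are therefore described and not separately supported. With Myl7 as a covariate 9 passed, the adjusted p of the other 18 lying between 0.0534 and 0.0551. In a fit of the 7 libraries alone 0 genes passed, with 10.4% of 11088 tested at a nominal p below 0.05, whereas DESeq2 called 144 (0.985%; 0.746% higher and 0.239% lower), all 27 included. Without Sham-LF replicate 1, Sham-LF replicate 2, AOB-F replicate 1 or AOB-F replicate 3, 0 genes passed in edgeR, with 864 to 1513 at a nominal p below 0.05, and without Sham-LF replicate 3, 5 passed.

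**Figure D2:**
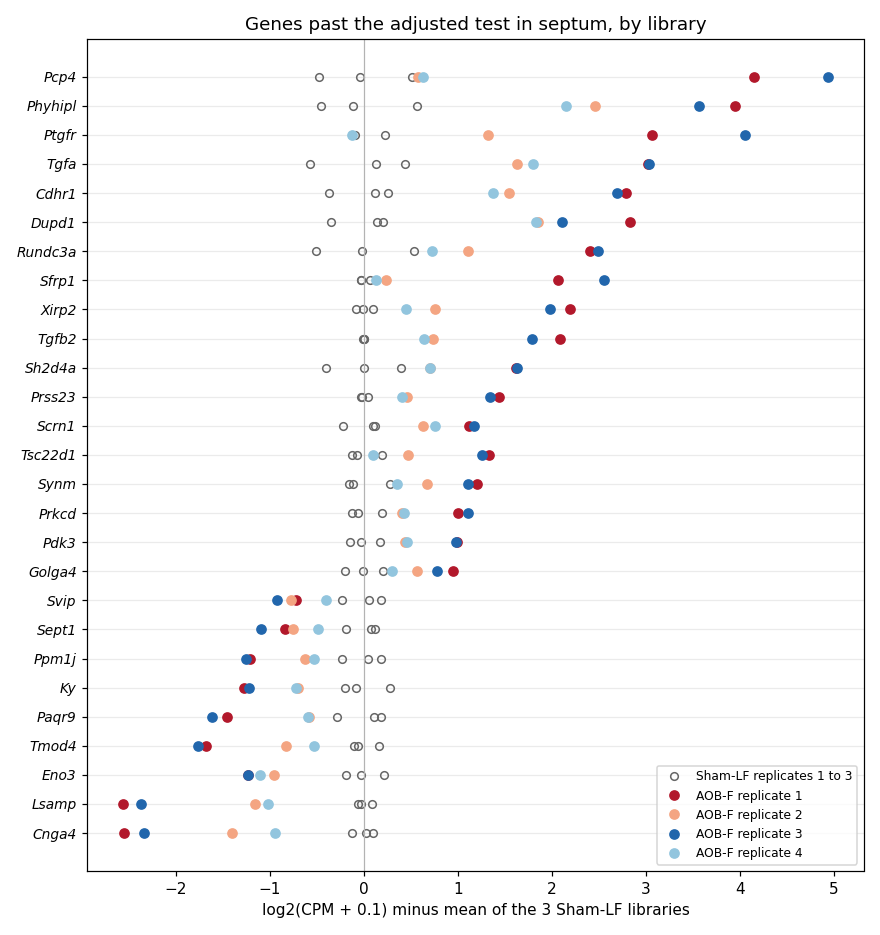
The 27 genes past the adjusted test, each library as log2(CPM + 0.1) minus the mean of the 3 Sham-LF libraries. Open circles are Sham-LF and filled circles AOB-F libraries. AOB-F replicates 1 and 3 lie farthest from the shams for 26 of the 27 genes, and replicate 4 lies among the shams for Ptgfr.

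Several of the genes that rose encode ligands or receptors. Tgfa encodes transforming growth factor alpha, a ligand of the epidermal growth factor receptor, and had the lowest p of all genes. Its level was 1.63, 0.964 and 2.04 CPM in the shams and 12.8, 4.77, 12.8 and 5.41 CPM in AOB-F. All AOB-F animals lay above all shams, and Tgfa rose by 2.49 ± 0.44 (adjusted p 0.0250). Tgfb2, a ligand of the TGF-beta receptors, was at 17.9, 17.9 and 18.0 CPM in the shams and at 76.2, 29.9, 62.4 and 28.0 CPM in AOB-F. The shams were nearly identical, and the rise of 1.45 ± 0.33 (adjusted p 0.0483) was seen in each AOB-F animal. Ptgfr, the receptor of prostaglandin F2 alpha, was at 5.08, 4.99 and 6.38 CPM in the shams and at 46.5, 13.7, 91.8 and 4.99 CPM in AOB-F. It rose by 2.82 ± 0.60 (adjusted p 0.0411) in 3 animals, while AOB-F replicate 4 was at the sham level. Sfrp1, a secreted binder of Wnt ligands, was at 9.78 to 10.4 CPM in the shams and at 42.0, 11.8, 59.2 and 10.9 CPM in AOB-F, and its rise of 1.62 ± 0.35 (adjusted p 0.0411) was largest in replicates 1 and 3. When each library was left out in turn, the value of Ptgfr ranged from 1.98 to 3.21 and that of Sfrp1 from 1.12 to 1.93. Prss23, a secreted serine protease, was at 73.1 to 77.0 CPM in the shams and at 202, 102 and 189 CPM in AOB-F replicates 1 to 3, with replicate 4 just below replicate 2, and rose by 0.99 ± 0.19 (adjusted p 0.0263).

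Genes of the muscle cytoskeleton formed another group. Xirp2 encodes an actin-binding protein of the intercalated disc. Its level was 655, 691 and 744 CPM in the shams and 3171, 2744 and 947 CPM in AOB-F replicates 1, 3 and 4, with replicate 2 between the last pair. The groups did not overlap, and Xirp2 rose by 1.53 ± 0.33 (adjusted p 0.0411). Synm, an intermediate filament protein of muscle, was at 141, 145 and 191 CPM in the shams and at 363, 251, 341 and 201 CPM in AOB-F, and rose by 0.86 ± 0.19 (adjusted p 0.0443). Tmod4 and Ky moved the other way. Tmod4, a tropomodulin that caps thin filaments, fell by 1.10 ± 0.25 on the log2 scale (adjusted p 0.0483), from 44.3, 51.7 and 42.7 CPM to 14.3, 26.0, 13.5 and 32.0 CPM. Ky, a protein of the muscle Z-disc, was at 24.2, 26.2 and 33.7 CPM in the shams and at 11.4, 17.0, 11.8 and 16.9 CPM in AOB-F, and fell by 0.97 ± 0.21 (adjusted p 0.0411). The septin Sept1, a filament-forming GTPase, fell by 0.79 ± 0.15 (adjusted p 0.0263) from 4.70 to 5.87 CPM to 2.47 to 3.83 CPM. In each of these genes the AOB-F replicates 2 and 4 stood between the shams and replicates 1 and 3.

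Signalling and metabolic enzymes made up a further group. Eno3, the muscle enolase of glycolysis, was the most abundant gene that fell, at 542, 716 and 604 CPM in the shams and 263, 318, 263 and 287 CPM in AOB-F. Here the 4 AOB-F animals were close together, and Eno3 fell by 1.13 ± 0.23 on the log2 scale (adjusted p 0.0411). Pdk3, a kinase that inhibits pyruvate dehydrogenase, rose by 0.74 ± 0.16 (adjusted p 0.0411), from 4.82 to 6.06 CPM to 10.8, 7.29, 10.7 and 7.40 CPM. Prkcd, protein kinase C delta, rose by 0.76 ± 0.15 (adjusted p 0.0277), from 24.7 to 30.9 CPM to 54.2, 35.7, 58.4 and 36.4 CPM. Dupd1, a dual-specificity phosphatase of muscle, was at 0.805 to 1.23 CPM in the shams and 8.06, 4.07, 4.87 and 3.99 CPM in AOB-F, and rose by 2.30 ± 0.44 (adjusted p 0.0263). Ppm1j, a protein phosphatase of the PP2C family, fell by 0.88 ± 0.20 (adjusted p 0.0483), from 22.8 to 30.6 CPM to 11.2 to 18.5 CPM. Pcp4, a small modulator of calmodulin that is also known from conduction fibres, rose by 3.82 ± 0.81, but its levels of 0.653 and 0.682 CPM in AOB-F replicates 2 and 4 were hardly above the highest sham at 0.619 CPM, and those of replicates 1 and 3 were 8.85 and 15.3 CPM. Only 3 to 10 reads per sham library lay behind its sham level.

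The other genes that rose were Phyhipl (3.44 ± 0.73), the photoreceptor cadherin Cdhr1 (2.30 ± 0.52), Rundc3a (1.93 ± 0.42), the SH2 domain adaptor Sh2d4a (1.20 ± 0.25), Scrn1 (0.93 ± 0.21), the transcriptional regulator Tsc22d1 (0.87 ± 0.19) and the golgin Golga4 (0.66 ± 0.15). Phyhipl was at 0.456, 0.175 and 0.248 CPM in the shams, which were 2 to 7 reads, and at 5.68, 1.96, 4.34 and 1.57 CPM in AOB-F. Cdhr1 was at 0.526 to 0.867 CPM in the shams and at 1.99 to 5.48 CPM in AOB-F, and Rundc3a at 0.587 to 1.31 and 1.52 to 5.40 CPM. Sh2d4a was at 7.76, 10.2 and 13.5 CPM in the shams and at 31.7, 16.7, 31.9 and 16.7 CPM in AOB-F, so that the groups of Phyhipl, Cdhr1, Rundc3a and Sh2d4a did not overlap. Scrn1 went from 4.47 to 5.67 CPM to 8.14 to 11.9 CPM. Tsc22d1 was at 344, 358 and 430 CPM in the shams and at 948, 520, 894 and 402 CPM in AOB-F, with replicate 4 among the shams, and Golga4 at 295, 335 and 390 CPM and 651, 500, 578 and 415 CPM.

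The other genes that fell were Lsamp, the cyclic nucleotide-gated channel subunit Cnga4, the membrane receptor Paqr9 and Svip, a small partner of the ATPase VCP. Lsamp was at 22.0, 20.0 and 20.4 CPM in the shams and at 3.44, 9.25, 3.94 and 10.2 CPM in AOB-F. Cnga4 was at 2.22 and 2.45 CPM in Sham-LF replicates 1 and 2, with replicate 3 slightly higher, and 0.330, 0.854 and 1.21 CPM in AOB-F replicates 1, 2 and 4, with replicate 3 next to replicate 1. Lsamp fell by 1.61 ± 0.31 (adjusted p 0.0263) and Cnga4 by 1.73 ± 0.31 (adjusted p 0.0250). For both genes every AOB-F animal lay below every sham, and replicates 1 and 3 were lowest. Paqr9 fell by 0.99 ± 0.22 (adjusted p 0.0443), from 10.7, 14.8 and 14.1 CPM to 4.69, 8.69, 4.20 and 8.61 CPM. Svip fell by 0.70 ± 0.15 (adjusted p 0.0411), from 26.4, 24.2 and 19.9 CPM to 14.1, 13.6, 12.3 and 17.7 CPM. In a current rat assembly (GRCr8), the gene models of 11 of the 27 genes overlap another gene model, among them those of Eno3, Phyhipl, Ppm1j and Cnga4. The study's methods name a directional library kit and counting with multiple overlaps disabled, by which a read assigned to more than 1 gene is not counted. Whether strand was used in that assignment is not stated, so reads where models on opposite strands overlap may have been dropped or kept.

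The best known transcripts of the loaded heart did not pass the adjusted test in the edgeR fit of all Spt libraries, and for some of them this depended on the fit. The 10 genes of this set were Nppa, Nppb, Penk, Acta1, Ankrd23, Tceal7, Myh7, Col1a1, Col3a1 and Col8a1. All 10 were higher in AOB-F with a nominal p below 0.05, as were 5.71% of all genes, and the groups overlapped for Col3a1. They had been picked for their response to banding, in part in animals of this study. Nppa was at 860, 693 and 353 CPM in the shams, and its lowest AOB-F library held 1806 CPM (3.58 ± 0.83, adjusted p 0.0554). The AOB-F libraries with the least Myl7 held the most Nppa, and without the libraries above 50 CPM of Myl7 its value was 4.62 (adjusted p 0.00613). In that fit 7 of the 10 genes passed, the others being Nppb (1.81, adjusted p 0.00568), Col8a1 (1.78, adjusted p 0.00938), Ankrd23, Tceal7, Col1a1 and Col3a1. DESeq2 called 4, namely Nppa (adjusted p 0.00125), Nppb (0.00467), Ankrd23 (0.0126) and Col8a1 (0.0230), and with Myl7 as a covariate 0 of the 10 passed. Of all genes, 4.86% passed as higher without the libraries above 50 CPM of Myl7 and 0.746% with DESeq2. Nppb, the precursor of B-type natriuretic peptide, was at 379, 393 and 333 CPM in the shams and at 1355, 687 and 574 CPM in AOB-F replicates 1, 2 and 4, with replicate 3 second highest (1.36 ± 0.33, adjusted p 0.0613). Ankrd23, a titin-binding ankyrin repeat protein, was at 128, 118 and 165 CPM in the shams and at 958, 498, 766 and 353 CPM in AOB-F (2.23 ± 0.57, adjusted p 0.0840). Tceal7 was at 37.1 to 40.2 CPM in the shams and 92.4 to 225 CPM in AOB-F (2.02 ± 0.59, adjusted p 0.119). Penk, which encodes proenkephalin, differed in its order of animals. It was at 392, 290 and 368 CPM in the shams and at 492, 624, 486 and 577 CPM in AOB-F, with replicates 2 and 4 highest (0.64 ± 0.30, adjusted p 0.388).

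The promoters of Nppa and Eno3 are shown because these genes had the largest absolute differences in CPM among the stress genes and among the genes that fell. Each run holds the 250 bases before the transcription start from RefSeq, build GRCr8, 5′ to 3′ along the gene. Nppa lies at chr5:163711934-163712183 (plus strand) and Eno3 at chr10:55868936-55869185 (plus strand). Capitals mark the motifs searched on both strands, CATTCC (the M-CAT motif of TEAD factors), GATAA (GATA factors), TATAAA and the CArG box of serum response factor.
Nppa: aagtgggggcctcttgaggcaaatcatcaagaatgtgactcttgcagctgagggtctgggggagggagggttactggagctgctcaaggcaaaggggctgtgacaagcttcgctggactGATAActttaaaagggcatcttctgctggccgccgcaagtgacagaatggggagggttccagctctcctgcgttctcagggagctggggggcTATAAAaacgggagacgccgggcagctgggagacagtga
Eno3: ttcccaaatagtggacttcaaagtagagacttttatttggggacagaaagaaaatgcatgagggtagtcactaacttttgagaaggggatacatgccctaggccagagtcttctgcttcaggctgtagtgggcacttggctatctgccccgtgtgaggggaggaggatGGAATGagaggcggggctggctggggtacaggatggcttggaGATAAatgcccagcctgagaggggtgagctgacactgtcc
In Nppa a GATAA match starts 131 bases before the start and TATAAA 39 bases before it, and in Eno3 a CATTCC match on the minus strand starts at 82 and GATAA at 40. Promoters were matched by gene identifier for 21 of the 27 genes. Of 13 matched genes that rose, 1 held CATTCC and 0 held GATAA, and of 8 that fell, 1 held each. Over 33469 promoters of the same length 12.1% held CATTCC, 23.5% GATAA, 12.9% TATAAA and 1.5% a CArG box. A match is a description of letters, and its use was not tested.

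Both myosin heavy chains of the heart were compared per length, from the FPKM values. Myh7 encodes the slow beta chain and Myh6 the fast alpha chain. Myh7 made up 32.6%, 36.9% and 37.3% of the summed FPKM of both in the shams and 74.2%, 56.5%, 71.9% and 49.8% in AOB-F. All AOB-F animals were above all shams. With 4 animals against 3, the smallest two-sided p of an exact permutation test is 0.0571. Neither gene passed alone, with a fold change of 0.61 ± 0.28 for Myh7 (adjusted p 0.356) and -0.96 ± 0.27 for Myh6 (adjusted p 0.108). Acta1, the skeletal alpha-actin of the foetal heart, was at 1127, 1476 and 1386 CPM in the shams and at 3398, 2237, 2873 and 2087 CPM in AOB-F (0.99 ± 0.34, adjusted p 0.189).

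Gene lists were described by their counts and medians, beside the median of -0.01 over all genes. Of the list of haemodynamic stress and foetal genes, 23 were tested, Tgfa and Xirp2 rose, and 16 were higher and 2 lower at a nominal p below 0.05, that is 69.6% higher where all genes gave 5.71%. Its median was 0.61. By library, relative to the shams, the median of the list was 0.77, 0.44, 0.76 and 0.44 in AOB-F replicates 1 to 4 and at most 0.07 in the shams. Members that did not pass included Uchl1 (1.41 ± 0.39, adjusted p 0.105), Ankrd2 (1.29 ± 0.45, adjusted p 0.194) and Rcan1, an inhibitor and target of calcineurin (0.51 ± 0.19, adjusted p 0.233). The list was drawn up from known responses to load, some of them seen in earlier results of these libraries, so its direction is not independent evidence. Of 10 tested genes of the natriuretic peptide axis, none rose or fell, and 3 were higher at a nominal p below 0.05 (30%). Besides Nppa and Nppb this was Npr3, the clearance receptor, at 5.67, 8.06 and 12.4 CPM in the shams and 22.6, 19.0, 28.3 and 13.6 CPM in AOB-F (1.25 ± 0.37, adjusted p 0.129).

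**Figure D3:**
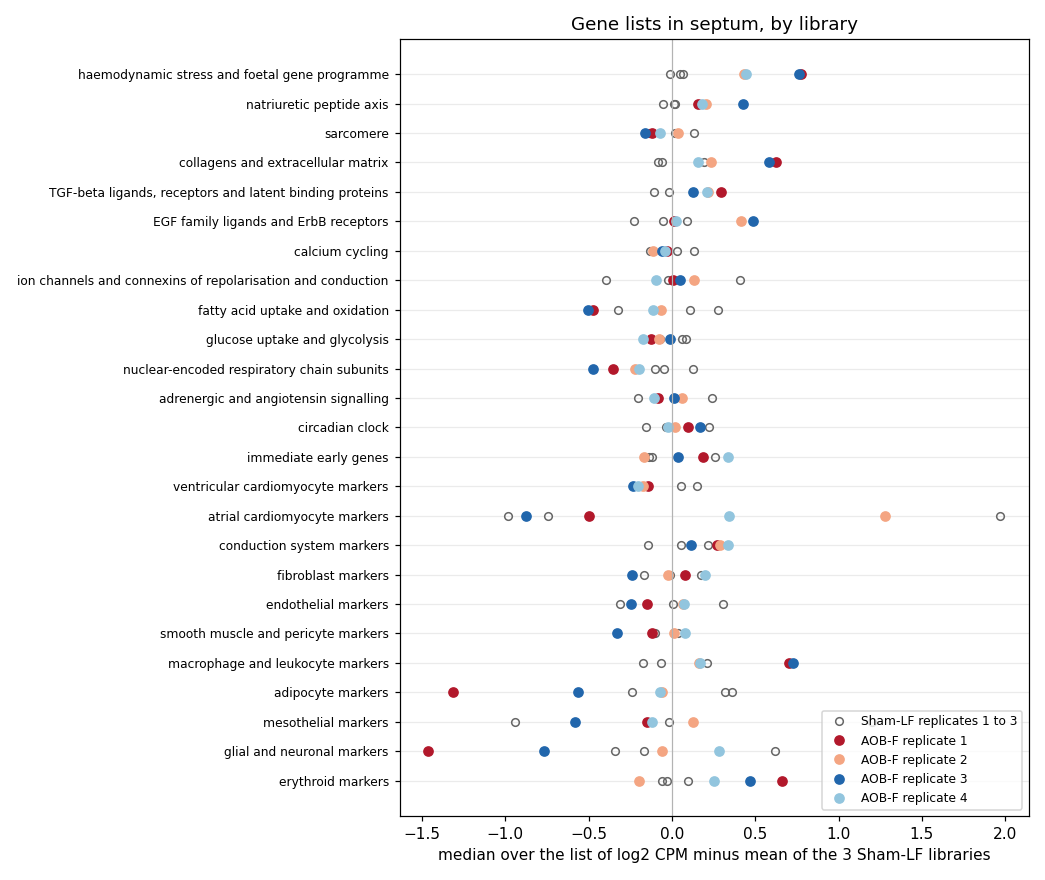
Median over each gene list of log2 CPM minus the mean of the 3 Sham-LF libraries, 1 point per library. Open circles are Sham-LF and filled circles AOB-F libraries. For the stress list the 4 AOB-F libraries lie at 0.44 to 0.77, above the shams, and for the atrial list the libraries of both groups are mixed.

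Matrix genes were mostly higher, and none of 38 tested collagens and matrix proteins passed the adjusted test in the fit of all Spt libraries. DESeq2 called 7 of them, all higher, among them Crtac1, Cilp, Bgn, Col14a1 and Postn. Without the libraries above 50 CPM of Myl7, 17 passed as higher and 1 as lower, Col1a1, Col3a1 and Col8a1 among the higher. All genes gave 4.86% higher and 4.79% lower without these libraries, and 0.746% higher with DESeq2. At a nominal p below 0.05, 16 were higher (42.1% of the list) and 1 was lower, and the median was 0.36. The matrix median was 0.62 and 0.58 in AOB-F replicates 1 and 3, but 0.23 and 0.16 in replicates 2 and 4, with Sham-LF replicate 1 at 0.20. Crtac1, a secreted cartilage protein, was at 0.371 to 0.438 CPM in the shams and at 8.92, 1.11, 12.8 and 0.630 CPM in AOB-F (3.84 ± 0.91, adjusted p 0.0607). Cilp, a matrix protein of cartilage and scarred heart, was at 15.0, 8.85 and 10.1 CPM in the shams and 64.0, 30.6, 44.2 and 23.0 CPM in AOB-F (1.83 ± 0.48, adjusted p 0.0903). The small proteoglycan Bgn (0.87 ± 0.23, adjusted p 0.0934) and the fibril-associated collagen Col14a1 (0.68 ± 0.18, adjusted p 0.0958) also had groups that did not overlap. Periostin, Postn, a product of activated fibroblasts, differed by 2.65 ± 0.72 (adjusted p 0.105). Of the fibrillar collagens, Col1a1 was at 136, 90.1 and 127 CPM in the shams and 199, 155, 194 and 142 CPM in AOB-F (0.55 ± 0.22, adjusted p 0.290). Markers of fibroblasts as a cell type had a median of -0.03 over 10 tested genes, and none passed the adjusted test. At a nominal p below 0.05, 3 were higher (30%, where all genes gave 5.71%), namely Col1a1, Pcolce and Mfap5, and 0 were lower. The same 3 passed without the libraries above 50 CPM of Myl7, where 4.86% of all genes passed as higher. The summed level of the fibroblast markers was 4251 to 5762 CPM in the shams and 3625 to 5599 CPM in AOB-F. Pdgfra, which defines these cells, was at 66.3 to 75.1 CPM and 52.6 to 80.0 CPM.

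Of 29 tested genes of the TGF-beta system, Tgfb2 rose, 8 were higher and 1 was lower at a nominal p below 0.05, and the median was 0.17. These shares were 27.6% higher and 3.45% lower, where all genes gave 5.71% and 6.5%. Among the proteins that hold latent TGF-beta, Ltbp2 was at 8.86, 3.24 and 7.06 CPM in the shams and 64.2, 16.4, 64.4 and 14.1 CPM in AOB-F (2.61 ± 0.71, adjusted p 0.105). Ltbp1 had the opposite sign, at 43.2 to 51.0 CPM in the shams and 24.6 to 40.7 CPM in AOB-F (-0.53 ± 0.14, adjusted p 0.0914). Gdf15, a stress cytokine of the family, was at 1.36 to 2.80 CPM and 4.57 to 9.12 CPM (1.68 ± 0.42, adjusted p 0.0749). Of 9 tested genes of the EGF family and its receptors, Tgfa rose and the heparin-binding ligand Hbegf was next by p, with 4.20 to 5.21 CPM in the shams and 6.88 to 12.1 CPM in AOB-F (0.82 ± 0.29, adjusted p 0.195). The receptor gene Erbb4 was at 1.18 CPM or less in all 7 libraries.

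Most genes of energy metabolism had a negative sign, and 1 of them, Eno3, passed the adjusted test. The summed ventricular cardiomyocyte markers were also lower in every AOB-F library than in every sham, and their part in these values was not tested. That sum includes Myh6 and leaves out Myh7. The summed sarcomere genes, which include both, overlapped between the groups. They were at 118860 to 144790 CPM in Sham-LF and at 111390 to 125650 CPM in AOB-F. Of 28 tested genes of fatty acid uptake and oxidation, 26 had a negative sign, 12 of them with a nominal p below 0.05 (42.9%, where all genes gave 6.5%), and the median was -0.30. The median lay between -0.44 without Sham-LF replicate 1 and -0.13 without Sham-LF replicate 3, and was -0.21 without AOB-F replicate 3. Eci1, an isomerase of unsaturated fatty acids, was at 404, 446 and 369 CPM in the shams and 221, 292, 183 and 303 CPM in AOB-F (-0.70 ± 0.18, adjusted p 0.0871). Decr1, a reductase of the same step, was at 276 to 340 CPM and 147 to 239 CPM (-0.64 ± 0.17, adjusted p 0.0958), and Acadvl, which starts the oxidation of very long chains, at 775 to 968 CPM and 486 to 734 CPM (-0.53 ± 0.15, adjusted p 0.105). All 36 tested subunits of the respiratory chain had a negative sign, 16 of them with a nominal p below 0.05 (44.4%), and none passed the adjusted test. Without the libraries above 50 CPM of Myl7, 16 genes of fatty acid oxidation and 19 of the respiratory chain passed, all lower. DESeq2 called 1 (Eci1) and 0. All genes gave 4.79% lower without these libraries and 0.239% lower with DESeq2. In the fit of all Spt libraries the 36 respiratory chain subunits had a median of -0.33, with fold changes between -0.81 and -0.12. Sdhb of complex II was at 1228 and 1430 CPM in Sham-LF replicates 1 and 2, with replicate 3 somewhat lower, and at 900 to 1078 CPM in AOB-F, below all shams (-0.34 ± 0.10, adjusted p 0.130). Of 19 genes of glucose uptake and glycolysis, 6 were lower (31.6%) and 2 higher (10.5%) at a nominal p below 0.05. All genes gave 6.5% lower and 5.71% higher. Hk1, a hexokinase of the foetal heart, was at 151, 182 and 217 CPM in the shams and at 300, 246, 311 and 206 CPM in AOB-F (0.53 ± 0.15, adjusted p 0.105). Slc2a4, the insulin-dependent glucose transporter, was at 521 to 631 CPM in the shams and at 402 to 517 CPM in AOB-F (-0.38 ± 0.13, adjusted p 0.174). The list of fatty acid genes was spread among the shams as well, since Sham-LF replicate 1, which held the most Myl7, had a median of -0.32 against -0.47, -0.07, -0.50 and -0.11 in AOB-F. The part of atrial tissue in this was not tested.

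Contractile and calcium handling genes had small medians as groups. Of 21 tested sarcomere genes none passed in the fit of all Spt libraries, and the median was -0.09. At a nominal p below 0.05, 2 were higher and 2 lower. Both shares were 9.52%, where all genes gave 5.71% higher and 6.5% lower. Of 21 calcium cycling genes, Pcp4 rose and the median was -0.12. At a nominal p below 0.05, 4 of these genes were lower (19%). Those were Trdn, Hrc and S100a1, which act in or on the calcium store, and Pln, the inhibitor of the calcium pump (-0.28 ± 0.12, adjusted p 0.322). Hrc was at 1619 and 1697 CPM in Sham-LF replicates 1 and 2, with replicate 3 lower, and at 882 and 808 CPM in AOB-F replicates 1 and 3, with replicates 2 and 4 between those and the lowest sham (-0.65 ± 0.18, adjusted p 0.105). Atp2a2, the pump itself, had a value of -0.36 ± 0.19 (adjusted p 0.456). Of 24 tested ion channels and connexins none passed in the fit of all Spt libraries. At a nominal p below 0.05, 2 were higher (8.33%) and 4 lower (16.7%), where all genes gave 5.71% and 6.5%. DESeq2 called 1, Cacna1g, and without the libraries above 50 CPM of Myl7 2 passed as higher and 3 as lower. All genes gave 4.86% higher and 4.79% lower without these libraries, and 0.746% higher with DESeq2. Cacna1g, a T-type calcium channel of the foetal heart and pacemaker cells, was at 16.0, 11.3 and 14.5 CPM in the shams and 49.5, 25.6, 70.4 and 20.6 CPM in AOB-F (1.56 ± 0.36, adjusted p 0.0554). Gja1, the main gap junction protein of the working myocardium, was at 398 to 535 CPM in the shams and 308 to 371 CPM in AOB-F (-0.42 ± 0.14, adjusted p 0.169).

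Markers of conduction cells had to be read with care because the upper septum carries the conduction bundle. Hcn4, the pacemaker channel, was at 2.61, 3.68 and 16.4 CPM in the shams and at 15.6, 16.5, 29.9 and 10.5 CPM in AOB-F (1.23 ± 0.62, adjusted p 0.426), so the groups overlapped. Cntn2, which marks the Purkinje network, was at 0.526 to 1.11 CPM in the shams and 0.534 to 1.81 CPM in AOB-F. The 17 conduction markers of the table summed to 425 to 585 CPM in the shams and 463 to 573 CPM in AOB-F, with Isl1 at 0 in all 7 libraries. Pcp4 is on this list too, and its high values were those of replicates 1 and 3. Other markers of the list differed in their order of animals. Kcne1 was at 6.19, 4.38 and 2.23 CPM in the shams and 26.0, 5.48, 24.2 and 3.41 CPM in AOB-F. Cacna1g was also highest in replicates 1 and 3, whereas Hcn4 was highest in replicate 3 and Cntn2 in replicate 2. In LV, Pcp4 was at 0.336 to 0.534 CPM in the shams and at 5.24 and 3.61 CPM in AOB-F replicates 1 and 4. Whether sampling of the bundle had a part in the rise of Pcp4 was not tested.

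Of the macrophage and leukocyte markers all 14 were tested and had a positive sign, and none passed the adjusted test. At a nominal p below 0.05, 5 were higher (35.7%, where all genes gave 5.71%). DESeq2 called 1, Lyz2, and without the libraries above 50 CPM of Myl7 8 passed, all higher. All genes gave 4.86% higher without these libraries and 0.746% higher with DESeq2. The median was 0.44, and the summed level was 410 to 570 CPM in the shams and 526 to 858 CPM in AOB-F. Lyz2, the lysozyme of macrophages, was at 109, 69.0 and 79.4 CPM in the shams and 236, 119, 221 and 102 CPM in AOB-F (0.98 ± 0.30, adjusted p 0.135). Csf1r, the receptor that sustains macrophages, was at 36.6 to 50.4 CPM in the shams and 50.5 to 72.6 CPM in AOB-F (0.49 ± 0.17, adjusted p 0.188). Ptprc, common to all leukocytes, was at 13.6 to 20.9 CPM and 13.4 to 21.5 CPM (0.03 ± 0.17, adjusted p 0.974). Endothelial markers had a median of -0.08 over 9 tested genes and smooth muscle and pericyte markers of -0.11 over 11. At a nominal p below 0.05, 1 endothelial marker (11.1%) and 2 smooth muscle and pericyte markers (18.2%) were lower, and 0 were higher. All genes gave 6.5% lower and 5.71% higher.

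The response in Spt was then compared with that of the LV and RV of the same animals, as the interaction of banding with chamber in 21 libraries. No gene of 11462 passed for Spt minus LV, with 90 at a nominal p below 0.05 (0.785%), or for Spt minus RV, with 444 (3.87%). Both shares lie below what a threshold of 0.05 gives without any difference, that for LV by far. The test was thus insensitive, and the lack of calls does not show equal responses. With Spt replicates 3 and 4 exchanged between animals, 0 genes passed again, with 148 and 686 at a nominal p below 0.05, and with replicates 1 and 2 exchanged 0 passed, with 68 and 357. None of the 27 called and 10 chosen genes had a nominal p below 0.05 for either difference with the labels as given. The lowest p of all belonged to Hsp90aa1 for LV (-1.30 ± 0.32, adjusted p 0.99994) and to Fam184b for RV (-1.22 ± 0.27, adjusted p 0.990). All 27 called genes had the same sign in LV and in RV as in Spt, 26 and 24 of them with a nominal p below 0.05 there. Of the 27, 15 passed the adjusted test in LV and 0 in RV. The chambers come from the same animals and the share over all genes is not given, so these counts are descriptions. The values of each chamber are set side by side for some of the genes. Tgfb2 differed by 1.45 ± 0.33 in Spt, 1.94 ± 0.38 in LV and 1.54 ± 0.50 in RV, and Xirp2 by 1.53 ± 0.33, 1.74 ± 0.39 and 2.06 ± 0.55. Eno3 had values of -1.13 ± 0.23 in Spt, -1.23 ± 0.30 in LV and -0.65 ± 0.27 in RV. Lsamp had -1.61 ± 0.31, -1.46 ± 0.35 and -0.78 ± 0.44, and its difference between Spt and RV was -0.47 ± 0.61 with the labels as given and -0.65 ± 0.24 with replicates 3 and 4 exchanged (nominal p 0.0173, adjusted p 0.802). Ky was the other gene with a nominal p below 0.05 after the exchange, at -0.45 ± 0.17 (adjusted p 0.802). In RV, the levels of Lsamp in replicates 2 and 3 were 32.3 and 31.8 CPM, within the sham range of 30.1 to 35.5 CPM, while in Spt no AOB-F library was above 10.2 CPM.

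**Figure D4:**
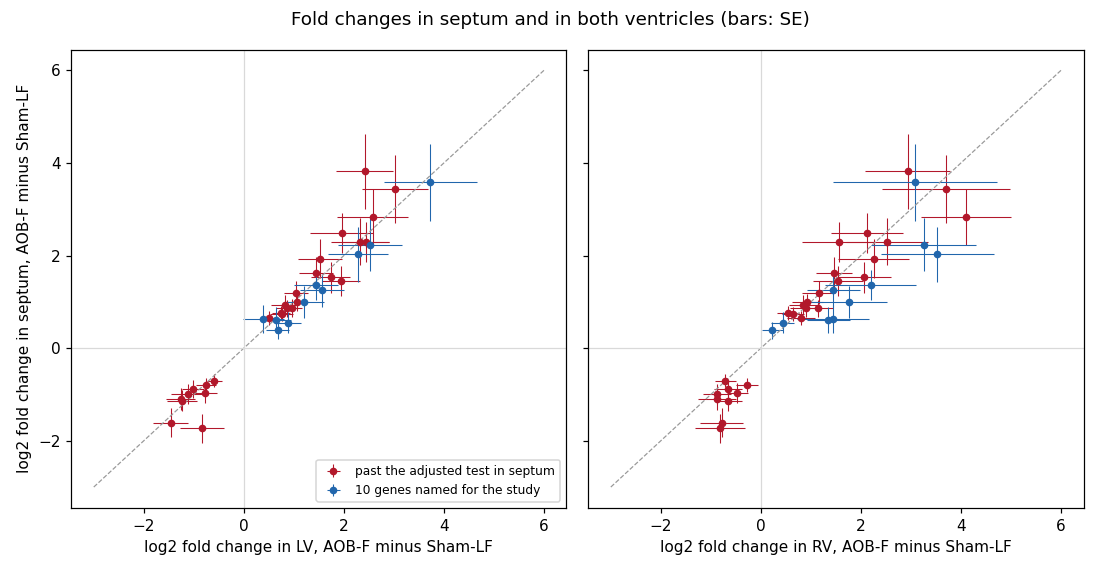
Log2 fold change of AOB-F against Sham-LF in Spt (vertical) and in LV or RV (horizontal), with SE bars, for the 27 genes past the adjusted test in Spt (red) and the 10 chosen genes (blue). The dashed line marks equal values. Lsamp lies at -1.61 in Spt and at -0.78 in RV.

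The compensated stage gave a look at the 27 genes in other animals. There AOB-H was compared with Sham-H, 7 rats against 7 at an age of 11 weeks and 7 weeks past surgery. No gene passed the adjusted test, and 1851 of 11624 had a nominal p below 0.05 (15.9%). All 27 genes had the same sign upon AOB-H as upon AOB-F, as did 69.1% of all genes, and 19 of them had a nominal p below 0.05 in that direction, as did 14.4% of all genes. Tgfa was at 0.874 to 4.39 CPM in AOB-H with a median of 1.97 CPM, and at 0.428 to 1.10 CPM in Sham-H with a median of 0.617 CPM. Eno3 was at 247 to 644 CPM in AOB-H, median 384 CPM, against 561 to 746 CPM and a median of 591 CPM in Sham-H. The AOB-H animals were widely spread, and some of them held as little Eno3 as AOB-F while others lay within the shams. Sfrp1 had a value of 0.03 ± 0.24 upon AOB-H. The difference between stages, each against its own sham, passed for no gene, with 339 at a nominal p below 0.05 (2.92%), and the lowest p was that of Sall1 (-1.84 ± 0.46, adjusted p 0.9998). For Sfrp1 it was 1.59 ± 0.42, for Pcp4 3.14 ± 1.08 and for Lsamp -1.06 ± 0.38, each with an adjusted p of 0.9998.

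Right heart failure upon pulmonary artery banding (PAB-F) provided the opposite load on the same wall, with 3 PAB-F against 2 Sham-RF males of the same cross, 27 weeks old and 21 weeks past surgery by the labels. In Spt of these rats the adjusted test called 0 genes, and 481 (4.14%) were below a nominal p of 0.05. Of the 27 genes, 24 had the same sign as upon AOB-F, as did 59.2% of all genes, and 4 had a nominal p below 0.05 in that direction, Ptgfr, Dupd1, Golga4 and Sept1, as did 2.9% of all genes. Lsamp was at 15.8 to 21.5 CPM in PAB-F and 17.3 to 20.1 CPM in Sham-RF, so these groups overlapped. Xirp2 was at 663 to 1250 CPM in PAB-F and 537 to 604 CPM in Sham-RF (0.72 ± 0.38). The difference between AOB-F and PAB-F, each against its own sham, passed for no gene, with 507 at a nominal p below 0.05 (4.36%). The lowest p belonged to Prg4, a lubricating proteoglycan, which differed by 0.94 ± 0.23 upon AOB-F and -0.61 ± 0.27 upon PAB-F (difference 1.54 ± 0.35, adjusted p 0.817).

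**Figure D5:**
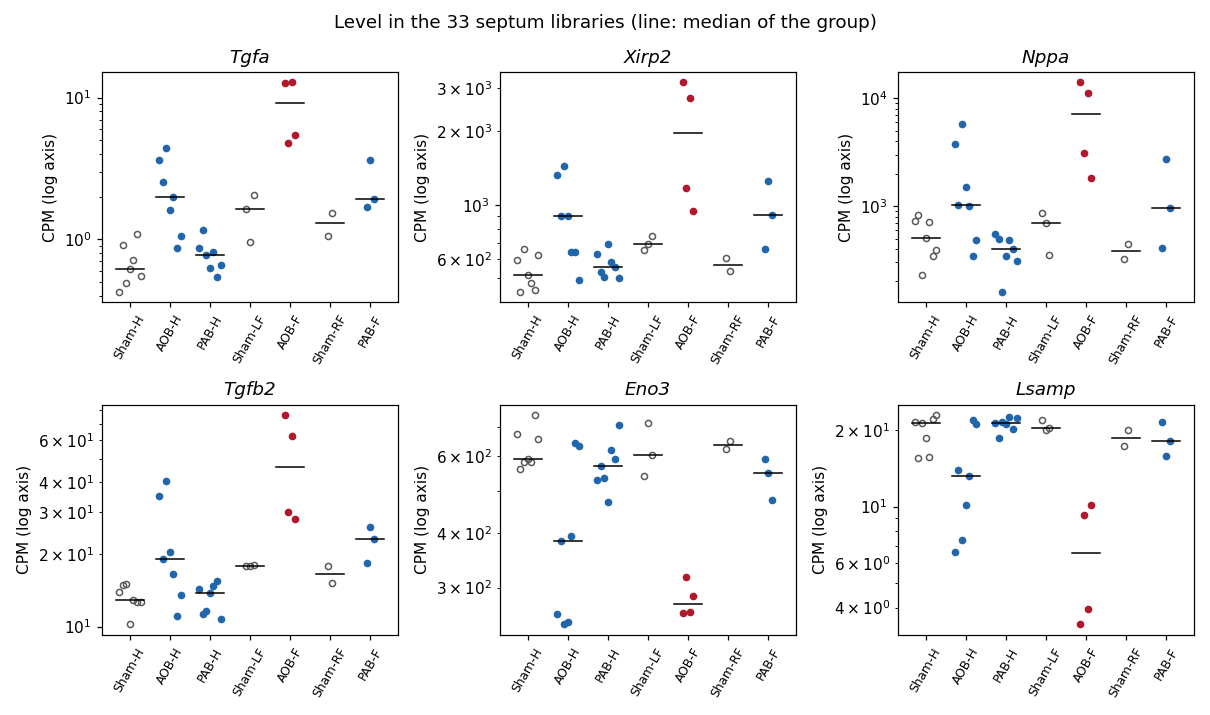
Levels in CPM (log axis) of 6 genes in the 33 Spt libraries by condition, with the median of each group as a line and shams as open circles. AOB-F (red) has a median of 9.08 CPM of Tgfa and 275 CPM of Eno3, beyond the medians of the other groups.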

How the data were processed

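RNA-seq of rat Spt, LV and RV was analysed from the table of all 99 libraries that the authors deposited. Its raw counts were made by the authors from trimmed single-end reads (Trim Galore, STAR, featureCounts with multiple overlaps disabled) of a directional library kit. Tool versions are in the study's methods and not repeated here, and the strand setting of the counting is not given in the sources used here. The normalized read signal deposited by the authors is the raw count divided by 1 size factor per library and was used only for checking. The FPKM values deposited by the authors are these reads per kilobase and served for the myosin shares.

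Spt counts of 33 libraries were fitted in edgeR 4.0.16 (R 4.3.3; TMM, filterByExpr, quasi-likelihood test, 7 conditions), leaving 11624 of 17337 genes. The 21 LV, Spt and RV libraries of the 7 animals were fitted together with the animal as a block for differences between chambers. DESeq2 1.42.0 (Wald test) was an alternative. Scripts were tested on simulated data. Figures were drawn in Python 3.11.15 with matplotlib 3.10.9. Called genes and 10 chosen genes were named, and in each list up to 4 members with the lowest p. Members and lists were chosen with earlier results of these data known. Each library is 1 animal and depth was 12.06 to 19.58 M counts, so that intervals for low genes cover few reads. The study's labels name no library series. Series were formed here from gaps in the library numbers, and by this all 7 libraries belong to library series 3. The LV and RV libraries of the same animals fall in an earlier series. Chamber and series therefore cannot be told apart where Spt is compared with LV and RV.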

Additional observations from a re-analysis of the deposited data

How the results depend on the processing

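The number of genes called for AOB-F against Sham-LF in Spt, 27 as reported, depended on the fit. It was 45 without the filter on low counts, 11 within library series 3 only, 1 in a fit of all 99 libraries, 0 in the 7 libraries alone (10.4% of 11088 at a nominal p below 0.05) and 144 with DESeq2. Leaving out single libraries gave 0 to 234. Chosen after seeing the data, leaving out the libraries above 50 CPM of Myl7 gave 1118 and Myl7 as covariate gave 9. With the replicate block 133 genes were called, including all 27, but same-numbered AOB-F and Sham-LF animals share only a number, since their deviations correlated at 0.216, -0.0789 and 0.135. The cause of these shifts was not tested. None of the 27 called and 10 chosen genes changed sign. Signs of the other genes named in the text are not summarised here. The differences between chambers, stages and bandings called 0 genes in every alternative run.

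Of 425 list medians under alternatives, 16 moved by more than the spread between libraries. Without the libraries above 50 CPM of Myl7 the medians were 0.67 for matrix, 0.27 for TGF-beta, -0.13 for the EGF family, -0.61 for fatty acid oxidation, -0.17 for glycolysis, 0.34 for conduction, 0.86 for macrophage and 0.61 for erythroid genes. The EGF family was at -0.0225 in the 7 libraries alone, and calcium cycling at -0.0227 with Myl7 as covariate. Leaving out single libraries gave -0.00671 to 0.36 for the natriuretic axis, -0.17 to -0.00498 for calcium cycling, -0.22 to -0.038 for glycolysis, -0.46 to 2.05 for atrial and 0.022 to 0.54 for conduction genes. The highest atrial and conduction values came without Sham-LF replicate 1. Depth limits statements on genes below about 1 CPM.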

Other observations

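Further lists of the Spt comparison are given as values. Of 21 tested genes of adrenergic and angiotensin signalling, 0 passed the adjusted test and the median was -0.06. At a nominal p below 0.05, 1 was higher (4.76%) and 5 were lower (23.8%). All genes gave 5.71% higher and 6.5% lower at that level. Of 15 circadian clock genes, 0 passed, 1 was lower at that level (6.67%) and the median was 0.09. Of 19 immediate early genes, 0 passed, 1 was higher (5.26%) and the median was 0.08. Glial and neuronal markers had a median of -0.33 over 7 tested genes, 3 of them lower (42.9%) and 1 higher (14.3%) at a nominal p below 0.05. Erythroid markers had a median of 0.31 over 4 genes, adipocyte markers -0.24 over 6 and mesothelial markers -0.60 over 4, with 0 genes past the adjusted test in each. These medians rest on few genes and animals. Leaving out single libraries gave -0.60 to 0.12 for the glial, -0.96 to 0.023 for the mesothelial, -0.49 to -0.095 for the adipocyte and 0.19 to 0.47 for the erythroid markers. The glial and the mesothelial median were above 0 without Sham-LF replicate 1.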
